A study of Mus musculus with 3 samples.

Results

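The contractile genes of smooth muscle were followed in mouse lung as a set of 10 genes: Acta2, Actc1 and Actg2 (muscle actins), Myh11 and Myl9 (heavy and light chain of smooth muscle myosin), Tagln, Cnn1 and Tpm2 (proteins on the actin filament), Des (intermediate filament) and Sln (a calcium pump regulator). They were chosen by gene symbol, each symbol matched 1 row, and so they are 10 of the 27998 genes counted. The data are droplet single-cell RNA sequencing of whole lung from C57BL/6 females aged 10 to 12 weeks, with 1 library a group. The groups are thoracic irradiation with 17 Gy in FLASH mode (ultra-high dose rate), the same dose in conventional mode (CONV) and a non-irradiated control (titled NI in the deposit). Both irradiated groups received 4.5 MeV electrons under isoflurane. The labels do not state whether the control was anaesthetised, how many mice went into a library or how long after irradiation the lungs were taken. A library that stands for a group leaves no replicate error, so no test and no p-value is given, and every interval below is a 95% interval for counting error only.

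Smooth muscle contracts when calcium, through calmodulin and myosin light chain kinase, leads to phosphorylation of the regulatory light chain and myosin pulls on actin filaments. In the lung this apparatus is carried by the muscle of arteries, veins and airways, in part by pericytes on capillaries, and by myofibroblasts. Acta2, Tagln, Myl9 and Tpm2 are also known from activated fibroblasts, while Myh11 and Cnn1 are used as markers of differentiated smooth muscle. Many of these genes are known targets of serum response factor, which binds a short promoter element called the CArG box and works with myocardin and its relatives. Actc1 is best known as the actin of the heart, Actg2 as the actin of visceral muscle, and Sln (sarcolipin) as an inhibitor of the calcium pump in the atria of the heart and in skeletal muscle.

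Promoter sequence is shown for 3 genes because they differ in the results below: Acta2 is the most abundant, Actc1 has the highest ratio of irradiated to control cells, and Myl9 differs little. The windows are the 250 bases before the RefSeq start on GRCm38.p6 (the assembly also named mm10), written 5′ to 3′ on the strand of the gene, with CArG boxes and CArG-like elements (the same frame with 1 G or C in its core) in capitals. They lie at chr19:34255374-34255623 on the minus strand, chr2:114052876-114053125 on the minus strand and chr2:156775214-156775463 on the plus strand. The gene spans printed further on come from another annotation, GENCODE, whose starts differ. By those spans the Actc1 window lies inside the gene, and the Acta2 and Myl9 windows overlap theirs. Distances below are to the RefSeq start.
Acta2: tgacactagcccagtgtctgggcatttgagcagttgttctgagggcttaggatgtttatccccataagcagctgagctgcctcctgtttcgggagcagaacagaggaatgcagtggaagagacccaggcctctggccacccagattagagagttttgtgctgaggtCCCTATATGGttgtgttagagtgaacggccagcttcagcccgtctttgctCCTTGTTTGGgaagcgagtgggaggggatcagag
Actc1: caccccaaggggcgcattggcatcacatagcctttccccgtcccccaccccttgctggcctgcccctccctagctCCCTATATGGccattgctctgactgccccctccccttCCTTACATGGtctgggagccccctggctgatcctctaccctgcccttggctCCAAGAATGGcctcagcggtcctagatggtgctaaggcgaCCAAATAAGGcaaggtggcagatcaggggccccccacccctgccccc
Myl9: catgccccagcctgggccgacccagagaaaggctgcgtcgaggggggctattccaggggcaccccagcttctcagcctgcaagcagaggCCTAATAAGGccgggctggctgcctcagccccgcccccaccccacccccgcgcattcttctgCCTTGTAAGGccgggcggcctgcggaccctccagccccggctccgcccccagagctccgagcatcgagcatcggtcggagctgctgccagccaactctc
Read on both strands, the Acta2 window holds no strict CArG box and 2 CArG-like elements, which begin 84 and 34 bases before the start. The Actc1 window holds 1 strict box at 47 bases and 3 CArG-like elements at 175, 138 and 87 bases. Its element at 175 bases has the same letters as the one at 84 bases in Acta2. Myl9 has 1 strict box at 161 bases and 1 CArG-like element at 99 bases. The windows of Cnn1, Des and Tpm2 hold neither form. Of 32851 windows of this kind in the RefSeq table, 1.47% hold a strict box and 7.24% a CArG-like element. Windows were matched for 6 of the 10 genes; Tagln, Myh11, Actg2 and Sln were not matched. A match describes letters only.

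The libraries held 2394, 2507 and 1761 barcodes (FLASH, CONV and control) with medians of 1776.5, 2351 and 2960 unique molecular identifiers (UMIs) each, so FLASH cells were the shallowest. After filters 2252, 2385 and 1704 cells remained, and 38 of the 6662 barcodes occurred in more than 1 library. The cells were clustered without the 10 genes. A class of 108 cells (33 FLASH, 46 CONV and 29 control) carried 12 of 15 smooth muscle markers outside the set, among them Lmod1, Mustn1, Synpo2 and Mylk. All of the set except Sln ranked among the 10 genes with the highest fold in this class. Keeping the 10 genes in the clustering gave the same ratios in this class and in its larger portion. Clustering of the stromal cells alone divided the class. One portion, here the Notch3 part, had 84 cells (23 FLASH, 40 CONV and 21 control). It was led by Itih4, Sncg, Actc1, Notch3, Map3k7cl, Lmcd1, Kcnmb1, Cox4i2, Ankrd1 and Myh11, of which Actc1 and Myh11 belong to the set. The other, the Hhip part, had 22 cells (9 FLASH, 5 CONV and 8 control), and 2 cells fell outside both. The Hhip part is the portion of a stromal sub-cluster of 66 cells (32 FLASH, 24 CONV and 10 control) that also lies in the smooth muscle class. The other cells of that sub-cluster lay in the 3 fibroblast clusters described further on (30, 10 and 4 cells). Its leading genes were Hhip and Aspn together with Nr4a2, Hk2, Enpp2, Nr4a1, Zfp36, Maff, Trib1 and Socs3. Among stromal cells 10 of 13 pericyte markers also marked the Notch3 part. Naming by markers called its sub-cluster pericyte there, and the Hhip sub-cluster smooth muscle, from 5 of 15 markers. Few cells of the Notch3 part were rich in Cox4i2 and Higd1b, known pericyte markers. These reached 4 UMIs together in 3 FLASH, 0 CONV and 3 control cells of it, and none of these cells had 20 Acta2 UMIs.

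Levels are given as CPM, the UMIs of a gene summed over a class and scaled by all UMIs of that class. A UMI counts 1 molecule at its 3′ end, so levels of different genes are not scaled by gene length. In every library 65.8% or more of the UMIs of each gene other than Sln lay in the smooth muscle class. Myh11 (the motor, chr16:14194535-14291372, minus strand) had 91.4%, 94.3% and 96.6% of its UMIs there in FLASH, CONV and control. Cnn1 (calponin, which dampens myosin, chr9:22099216-22109630, plus strand) had 89.8%, 95.6% and 96.1%. Actc1 and Actg2 were likewise held by the class to 89.9% or more in each library. Tagln, Des, Myl9 and Tpm2 spread further, with 17.5% to 23.6% of Tagln UMIs and 14.0% to 26.1% of Des UMIs in fibroblasts. These shares follow the number of fibroblasts captured (437 FLASH, 516 CONV and 140 control), so they describe the libraries and not the level per cell.

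**Figure D1:**
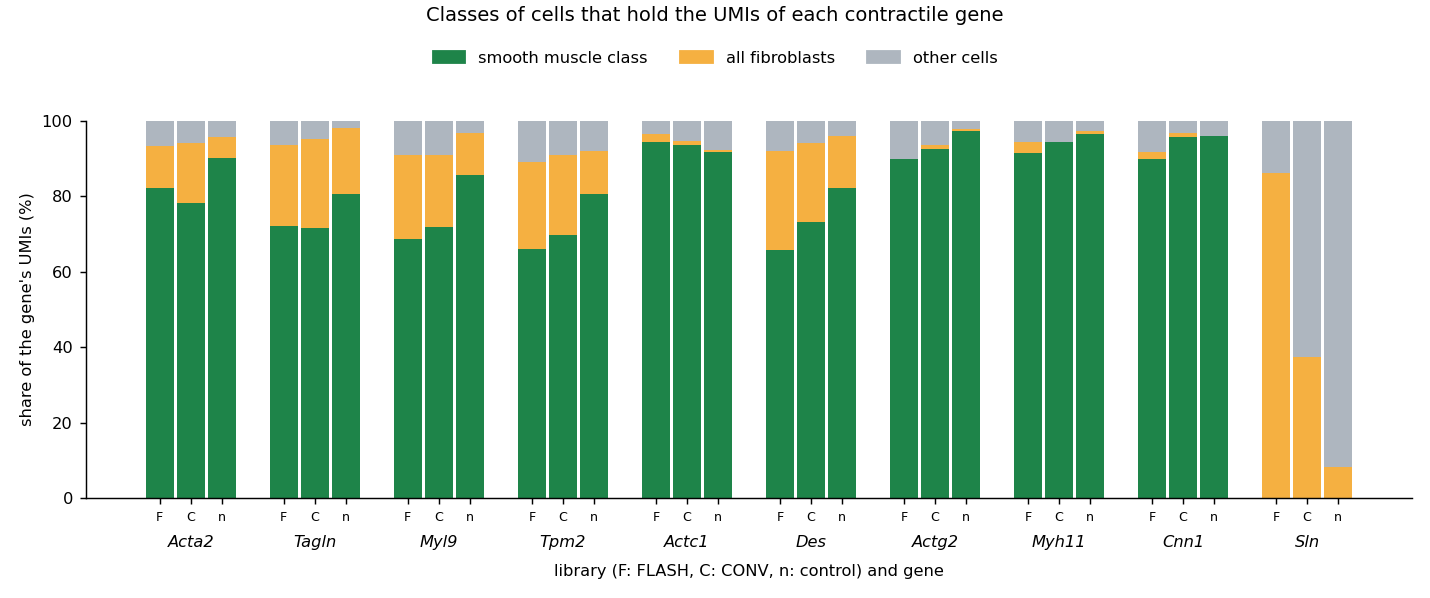
Share of the UMIs of each contractile gene (y axis, percent) found in the smooth muscle class (green), in fibroblasts (orange) and in all other cells (grey), for the FLASH, CONV and control libraries in that order. Myh11, Cnn1, Actc1 and Actg2 sit almost wholly in smooth muscle, Tagln, Des, Myl9 and Tpm2 also in fibroblasts, and Sln has no UMI in smooth muscle.

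Within the Notch3 part the 10 genes together made up 57990 CPM in FLASH, 47680 CPM in CONV and 42871 CPM in control. The sum was 1.35 times the control level in FLASH (1.28 to 1.42) and 1.11 times in CONV (1.06 to 1.16), and FLASH over CONV was 1.22 (1.16 to 1.28). In the class as a whole, with the Hhip part added, the sum differed less: 1.12 for FLASH over control (1.07 to 1.18), 1.12 for CONV over control (1.07 to 1.17) and 1.00 for FLASH over CONV (0.959 to 1.05).

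Acta2, the smooth muscle alpha-actin (chr19:34241090-34255590, minus strand), was the most abundant of the 3 muscle actins of the set. It reached 20859 CPM in FLASH, 14804 CPM in CONV and 16426 CPM in control cells of the Notch3 part. FLASH was the highest of the 3, at 1.27 times control (1.17 to 1.38) and 1.41 times CONV (1.30 to 1.53). CONV over control was 0.90 (0.83 to 0.97). Per cell, the median was 19.0 Acta2 UMIs per 1000 UMIs in FLASH, 12.6 in CONV and 12.4 in control, and the ranges overlapped widely: 0 to 48.1 in FLASH, 5.72 to 26.5 in CONV and 0 to 30.7 in control. None of these ratios passes 1.5-fold.

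Actc1, the cardiac alpha-actin (chr2:114047282-114053548, minus strand), showed the largest difference of the set. It had 4145 CPM in FLASH (3574 to 4782), 3608 CPM in CONV (3228 to 4020) and 1707 CPM in control (1426 to 2027). FLASH was 2.43 times control (1.93 to 3.06) and CONV 2.11 times control (1.72 to 2.61), while FLASH over CONV was 1.15 (0.96 to 1.38). The gene was uneven between cells. The richest cell of each library held 64 of 188 Actc1 UMIs in FLASH, 63 of 329 in CONV and 51 of 130 in control. Without the cell with the most Actc1 UMIs of each library, an alternative chosen after the data were seen, FLASH was 2.65 and CONV 2.63 times control. At least 5 Actc1 UMIs per 1000 were found in 6 of 23 FLASH, 6 of 40 CONV and 1 of 21 control cells. Medians per cell were 1.54, 1.19 and 0.468 Actc1 UMIs per 1000 in the same order, far below the maxima of 15.8, 34.0 and 7.90. Over all cells outside smooth muscle and fibroblasts Actc1 was at 1.60 CPM in FLASH, 3.62 CPM in CONV and 2.07 CPM in control.

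Actg2, the smooth muscle gamma-actin (chr6:83512905-83536265, minus strand), had 1940 CPM in FLASH, 1985 CPM in CONV and 1405 CPM in control. It was 1.38 times control in FLASH (1.03 to 1.85) and 1.41 times in CONV (1.11 to 1.81). The make-up of the 3 muscle actins therefore differed between irradiated and control cells of the Notch3 part. Acta2 gave 77.4% of their UMIs in FLASH (75.0 to 79.7), 72.6% in CONV (70.5 to 74.6) and 84.1% in control (82.1 to 85.9). Actc1 gave 15.4% in FLASH (13.4 to 17.5), 17.7% in CONV (16.0 to 19.5) and 8.74% in control (7.35 to 10.3). Actg2 gave 7.20%, 9.73% and 7.19% in that order. The exact Clopper-Pearson intervals of Acta2 and of Actc1 do not overlap between either irradiated library and the control.

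**Figure D2:**
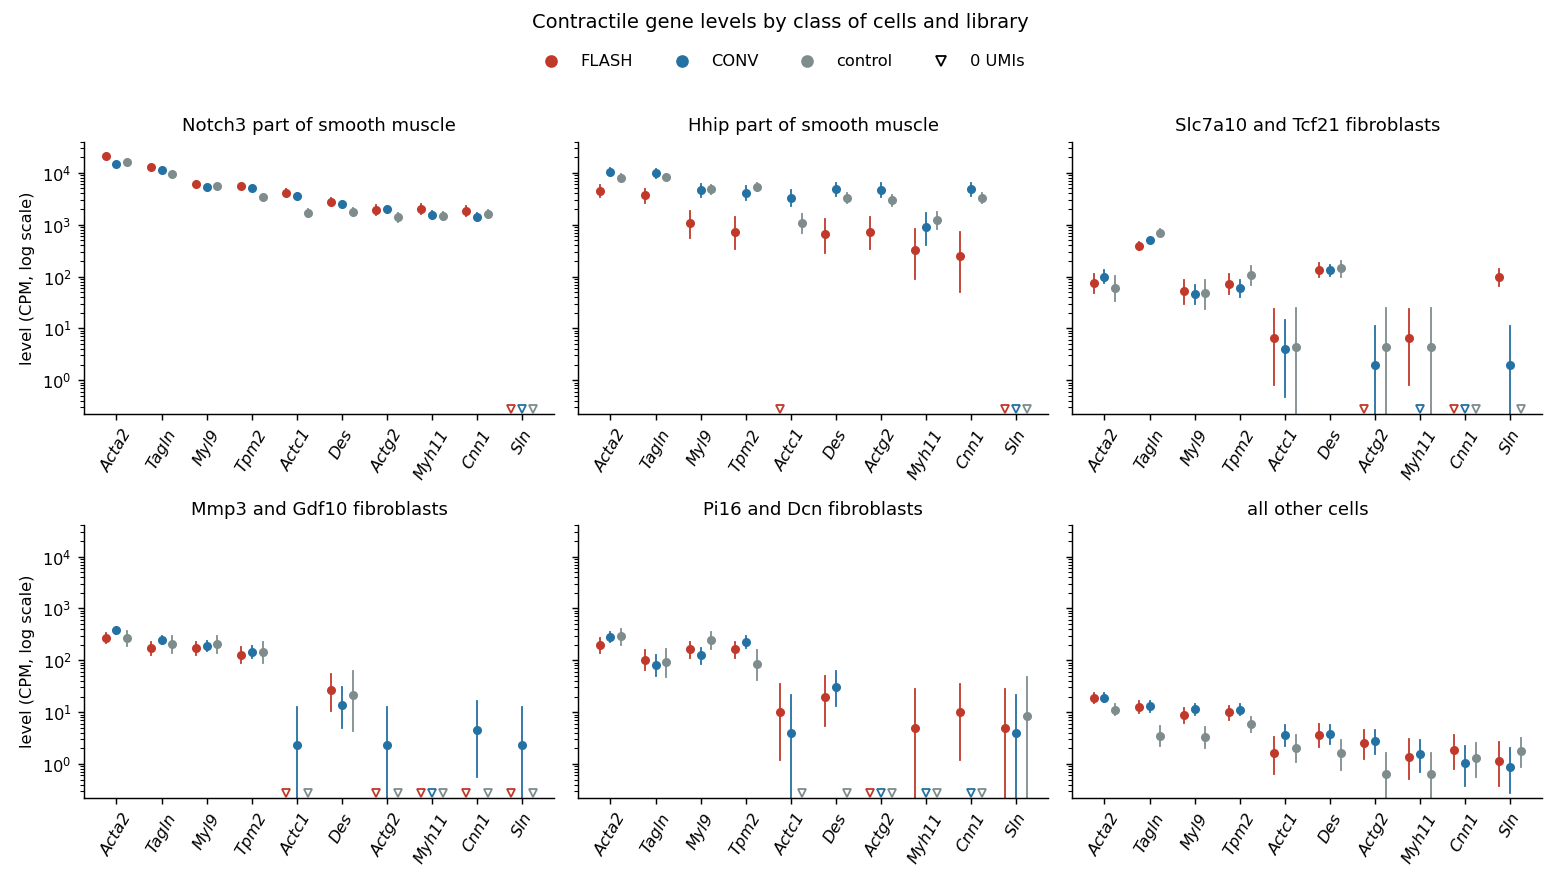
Level of each contractile gene (y axis, CPM on a log scale) in 6 classes of cells, with FLASH, CONV and control side by side and bars for the exact Poisson 95% interval; open triangles mark 0 UMIs. Acta2 leads in the Notch3 part at 20859, 14804 and 16426 CPM, Tagln leads in the Slc7a10 and Tcf21 fibroblasts, and the pool of all other cells lies below 20 CPM for each gene.

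Among the proteins on the actin filament, Tagln (transgelin, SM22-alpha, chr9:45929619-45936058, minus strand) had 12833 CPM in FLASH, 11481 CPM in CONV and 9533 CPM in control. Its ratio to control was 1.35 in FLASH (1.20 to 1.503) and 1.20 in CONV (1.09 to 1.33). Tpm2, beta-tropomyosin (chr4:43514711-43523765, minus strand), had 5490 CPM in FLASH, 5066 CPM in CONV and 3348 CPM in control, with ratios to control of 1.64 (1.37 to 1.96) and 1.51 (1.30 to 1.77). Tpm2 was the second highest ratio of the set in both irradiated libraries. Cnn1 had 1874 CPM in FLASH, 1393 CPM in CONV and 1589 CPM in control, and both intervals against control included 1 (0.88 to 1.57 and 0.68 to 1.13).

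The myosin subunits stayed within the fold in both irradiated libraries. Myh11 had 2028 CPM in FLASH, 1535 CPM in CONV and 1471 CPM in control, a ratio to control of 1.38 in FLASH (1.04 to 1.83) and 1.04 in CONV (0.81 to 1.35). Myl9, the regulatory light chain (chr2:156775420-156781658, plus strand), had 6108 CPM in FLASH, 5264 CPM in CONV and 5607 CPM in control. Its ratios to control, 1.09 (0.93 to 1.27) and 0.94 (0.82 to 1.07), were the nearest to 1 in FLASH and close to 1 in CONV. Des, desmin, which ties the contractile lattice together (chr1:75360329-75368579, plus strand), had 2712 CPM in FLASH, 2544 CPM in CONV and 1786 CPM in control. It was 1.52 times control in FLASH (1.18 to 1.95) and 1.42 times in CONV (1.15 to 1.77). The control cells without a Des UMI were deep, with 6457, 6201, 5139 and 4326 UMIs, and held 108, 115, 92 and 53 Acta2 UMIs. FLASH cells without a Des UMI had at most 4 Acta2 UMIs, and such CONV cells had 17 to 60. The part of these cells in the Des ratios was not tested. Sln (chr9:53850164-53854560, plus strand) had 0 UMIs in all 84 cells, which allows up to 66.1 CPM in FLASH, 32.9 CPM in CONV and 39.4 CPM in control when 3 counts are taken as the limit.

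A gene was counted as past the fold when it had at least 20 UMIs over both libraries and differed 1.5-fold or more. Of the 10 genes 9 could be counted in the Notch3 part. FLASH over control was past the fold upwards for 3 of 9 (Actc1, Des and Tpm2), where 12.4% of all 958 genes counted were higher and 17.6% lower. CONV over control was past it for 2 of 9 (Actc1 and Tpm2), where 14.3% of 1335 genes were higher and 15.9% lower. FLASH over CONV was past it for 0 of 9, where 11.3% of 1048 genes were higher and 14.0% lower. No gene of the set was past the fold downwards. The median log2 ratio of the 9 genes was 0.46 for FLASH over control, 0.27 for CONV over control and 0.20 for FLASH over CONV, beside −0.01, 0.02 and −0.06 over all genes counted. The first 2 comparisons share the control library. In the whole class Actc1 alone was past the fold against control, at 2.04 in FLASH (1.64 to 2.53) and 2.25 in CONV (1.86 to 2.73), with 10.6% and 12.8% of all genes higher and 18.0% and 15.8% lower. For FLASH over CONV 0 of 9 were past it there, with 10.8% of all genes higher and 14.3% lower.

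**Figure D3:**
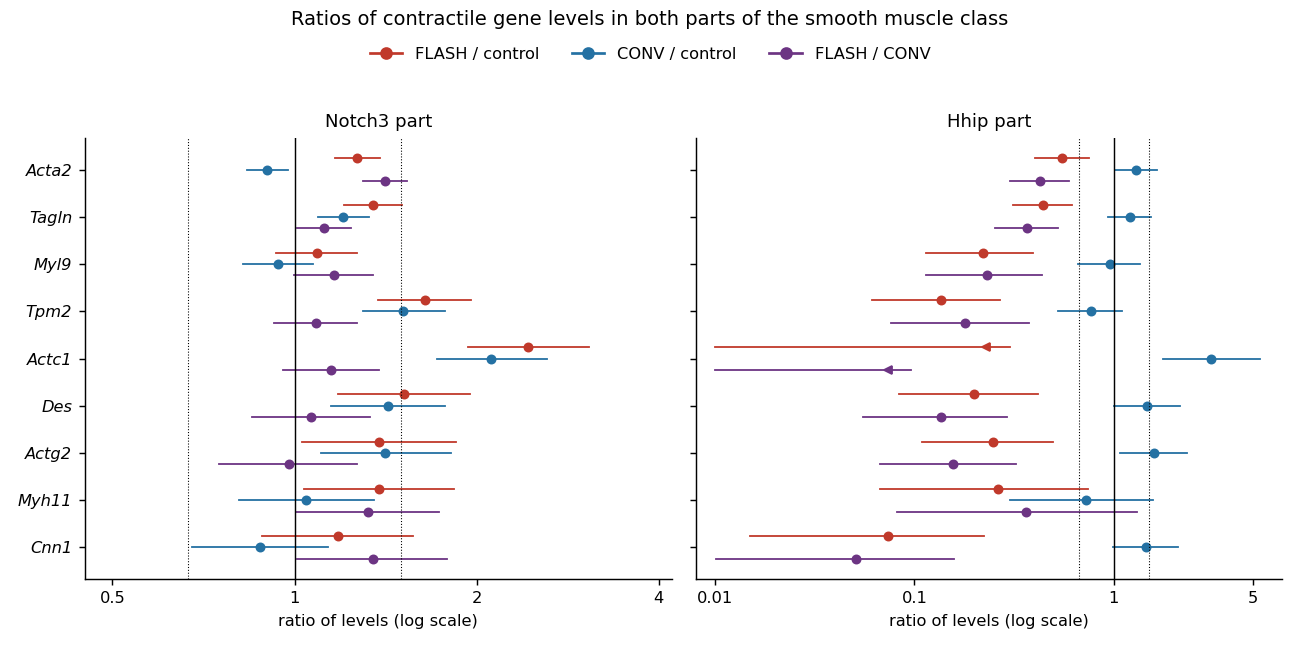
Ratio of levels (x axis, log scale, with a different range in each panel) for 9 contractile genes in the Notch3 part and the Hhip part, with exact conditional 95% intervals; dotted lines mark 1.5-fold, and triangles mark an upper bound where FLASH had 0 UMIs. In the Notch3 part Actc1 lies farthest to the right against control, at 2.43 in FLASH and 2.11 in CONV, and in the Hhip part every FLASH ratio lies below 1.

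Depth and markers of other cell types moved with these groups. Cells of the Notch3 part had medians of 1749 UMIs in FLASH, 2061 in CONV and 3136 in control. The 15 epithelial markers, of which 7, 11 and 5 had a UMI, summed to 9724 CPM in FLASH, 9825 CPM in CONV and 5410 CPM in control. The 13 pericyte markers, of which 11, 9 and 12 had a UMI and Lamc3 had none in any library, summed to 2977, 1437 and 3335 CPM. The 18 myeloid markers, of which 7 had a UMI in each library, summed to 794 CPM in FLASH, 844 CPM in CONV and 276 CPM in control. The 3 red cell markers, of which 2 had a UMI, summed to 287, 87.7 and 26.3 CPM. The part of these markers in the ratios was not tested. With each cell thinned to 1000 UMIs, the ratios to control in FLASH were 2.53 for Actc1, 1.86 for Actg2, 1.84 for Des, 1.77 for Tpm2 and 1.52 for Tagln, 5 genes past the fold. In CONV thinning likewise gave 5 genes past the fold, at 2.69 for Actc1, 2.08 for Actg2, 1.74 for Des, 1.64 for Tpm2 and 1.53 for Tagln. With a mitochondrial limit of 5% Actc1 alone was past the fold in both, at 2.76 and 2.46. No share of all genes is given for thinned cells or for the 5% limit, so these counts have no background beside them. Thinning also gives every cell the same weight and left out the FLASH cell of 995 UMIs. The higher counts after thinning are therefore not read as a result about the set.

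Most cells of the Notch3 part held UMIs of several of the genes. The median cell held UMIs of 8 of the 10 genes in FLASH, 9 in CONV and 8 in control. In the same order, 9 genes were detected in 9 of 23, 25 of 40 and 8 of 21 cells. Shared detection does not mean that levels moved together. Spearman correlations of levels per UMI over cells were 0.81, 0.18 and 0.69 for Acta2 and Tagln in FLASH, CONV and control. They were 0.52, 0.14 and 0.14 for Acta2 and Des, and 0.62, 0.61 and 0.62 for Myl9 and Tpm2. Their difference between libraries was not tested. The set took 5.33% of the UMIs of the median FLASH cell, 4.35% in CONV and 3.52% in control. Cells with at least 5% of their UMIs in the set numbered 14 of 23 in FLASH, 12 of 40 in CONV and 5 of 21 in control. Every CONV cell was above 2.20%, whereas 3 FLASH and 3 control cells were under 1%. The cells under 1% are the same 3 FLASH and 3 control cells that reached 4 Cox4i2 and Higd1b UMIs together. Without them the sum of the set was 1.35 times control in FLASH and 1.03 times in CONV. After thinning, Actc1 was detected in 54.5% of FLASH, 62.5% of CONV and 38.1% of control cells (56.5%, 85.0% and 61.9% as deposited). The thinned share with Des was 90.9%, 85.0% and 57.1% (91.3%, 90.0% and 81.0% as deposited). Lymphoid cells, which should lack these genes, had an Actc1 UMI in 0.188%, 0% and 0.200% of cells and a Des UMI in 0.565%, 0.395% and 0.1001% at the same thinned depth.

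**Figure D4:**
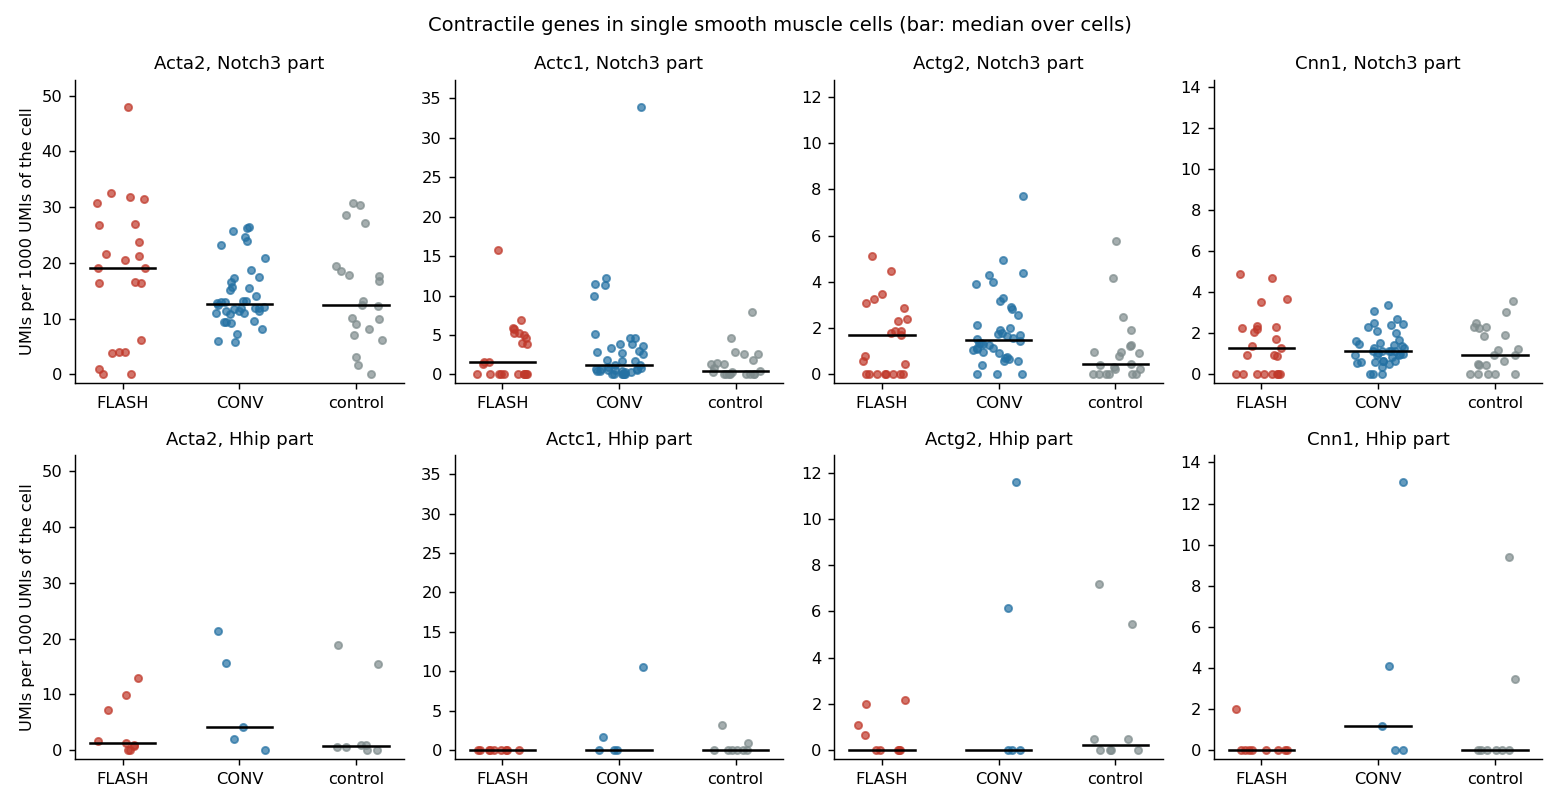
UMIs of Acta2, Actc1, Actg2 and Cnn1 per 1000 UMIs (y axis) in each cell of the Notch3 part (top) and the Hhip part (bottom), with FLASH, CONV and control from left to right; a point is a cell and the bar is the median over cells. Most Actc1 lies in few cells, up to 34.0 per 1000 in CONV, and in the Hhip part 2 CONV and 2 control cells hold 95 of 105 and 183 of 189 Acta2 UMIs.

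The Hhip part was small, and 2 CONV and 2 control cells held most of its contractile transcripts. It held 9 FLASH cells with 146 UMIs of the set, 5 CONV cells with 477 and 8 control cells with 895. Hhip and Aspn mark airway muscle and the myofibroblasts of alveolar ducts in mouse. Cells with at least 5% of their UMIs in the set numbered 0 of 9 in FLASH, 2 of 5 in CONV and 2 of 8 in control, and these cells held 427 of the 477 UMIs in CONV and 878 of the 895 in control. The richest control cell had 585 UMIs of the set, among them 62 Cnn1, 36 Actg2 and 56 Des, and the second had 293. The richest CONV cell had 234, among them 36 Cnn1, 32 Actg2, 33 Des and 29 Actc1, and the second had 193. The other 6 control cells had 1 to 5 UMIs of the set each, beside 1 to 11 Hhip UMIs, and the other 3 CONV cells had 5 to 31. In FLASH the richest cell had 56 UMIs of the set and no Cnn1.

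Sums and medians of the set in the Hhip part went opposite ways for FLASH and control. By median over cells, the set took 0.489% of the UMIs in FLASH, 1.81% in CONV and 0.188% in control, and Acta2 was 1.29, 4.08 and 0.783 UMIs per 1000. Summed, all 9 countable genes were past the fold downwards for FLASH over control, where 29.9% of 271 genes were lower and 12.5% higher. The ratio of the sum of the set was 0.31 (0.26 to 0.37), with 0.55 for Acta2 (0.40 to 0.75) and 0.44 for Tagln (0.31 to 0.62). Cells with at least 5% of their UMIs in the set were also left out, an alternative chosen after the data were seen. It removes cells by the quantity compared, 0 of 9 in FLASH, 2 of 5 in CONV and 2 of 8 in control. Both ratios of FLASH therefore had to rise. The sum was then 8.69 times control in FLASH (5.24 to 15.3) and 7.57 times in CONV (4.29 to 14.0), and FLASH over CONV was 1.15 (0.83 to 1.61). Control was left with 17 UMIs of the set in 6 cells, and no direction is read from these values. The same 2 control cells held all 25 Actc1 UMIs, 74 of 76 Des, 124 of 125 Tpm2 and 107 of 112 Myl9 UMIs of control, so these genes could be counted only through them. The summed ratios describe those cells and give no direction for the part.

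CONV over control was past the fold for Actc1 at 3.07 (1.77 to 5.39) and Actg2 at 1.59 (1.07 to 2.33), where 13.2% of 257 genes were higher and 22.2% lower. A single CONV cell held 29 of the 33 Actc1 and 32 of the 47 Actg2 UMIs, and both ratios turned to 0.67 (0.38 to 1.17) and 0.35 (0.24 to 0.51) when all cells of the Hhip sub-cluster were used. The sum of the set in that sub-cluster was 2853 CPM in FLASH, 8310 CPM in CONV and 27659 CPM in control. FLASH over CONV in the Hhip part was past the fold downwards for 8 of 8, where 22.4% of 174 genes were lower and 15.5% higher. The 2 CONV cells rich in the set held all 33 Actc1 and all 47 Actg2 UMIs of CONV. They also held 46 of 48 Cnn1, 47 of 48 Des and 38 of 41 Tpm2 UMIs. These 5 genes could be counted only through those cells, and no direction for the part is read from the count. Actg2 gave 14.1% of the actin UMIs in FLASH (6.64 to 25.02), 25.4% in CONV (19.3 to 32.3) and 24.4% in control (19.5 to 29.8), and the cells rich in the set held all 47 Actg2 UMIs in CONV and 67 of 69 in control. The 11 adventitial fibroblast markers summed to 1544 CPM in FLASH, 399 CPM in CONV and 3509 CPM in control cells of the Hhip part, and the 13 pericyte markers to 325, 299 and 471 CPM with Cox4i2, Higd1b and Notch3 at 0 in all 3 libraries. Median depth was 1372, 1716 and 2078 UMIs per cell. Their part in the ratios was not tested.

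Smooth muscle cells were a smaller share of the stromal cells and of the non-lymphoid cells in both irradiated libraries than in control. They were 33 of 487 stromal cells in FLASH (6.78%), 46 of 581 in CONV (7.92%) and 29 of 185 in control (15.7%). The difference from control was −8.90 percentage points in FLASH (−15.1 to −3.68) and −7.76 in CONV (−14.0 to −2.59), with −1.14 between FLASH and CONV (−4.27 to 2.09). Of the non-lymphoid cells the class was 1.93% in FLASH, 2.45% in CONV and 4.11% in control, a difference from control of −2.19 points in FLASH (−4.01 to −0.74) and −1.67 in CONV (−3.50 to −0.19). Of all cells it was 1.47%, 1.93% and 1.70%, and both differences from control had intervals that include 0. Lymphoid cells numbered 538 of 2252 in FLASH, 506 of 2385 in CONV and 999 of 1704 in control, so the control's share of all cells is set against many more of them. The share of stromal cells depends on how many fibroblasts were captured, 437, 516 and 140, and on dissociation and loading, whose part cannot be told apart from the groups.

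Fibroblasts formed 3 clusters that used the set in different ways. The Slc7a10 and Tcf21 cluster (9 of 10 alveolar fibroblast markers) held 194 FLASH, 237 CONV and 73 control cells. Here Tagln led with 393 CPM in FLASH, 496 CPM in CONV and 696 CPM in control, and Des followed with 135, 134 and 144 CPM. Acta2 was low at 75.9 CPM in FLASH, 100.0 CPM in CONV and 61.3 CPM in control. There were 5.17 Tagln UMIs for each Acta2 UMI in FLASH (3.29 to 8.48), 4.96 in CONV (3.65 to 6.86) and 11.4 in control (6.57 to 21.2). The Mmp3 and Gdf10 cluster (7 of 10 alveolar fibroblast markers) held 138 FLASH, 171 CONV and 37 control cells. It had 0.63 Tagln UMIs per Acta2 UMI in FLASH (0.43 to 0.92) and 0.64 in CONV (0.50 to 0.82), both below 1. In control it had 0.78 (0.46 to 1.31), an interval that includes 1, and 1 control cell held 22 of the 37 Acta2 UMIs. The Pi16 and Dcn cluster (10 of 11 adventitial fibroblast markers; 105 FLASH, 108 CONV and 30 control cells) had 0.525, 0.288 and 0.324. The intervals of the Slc7a10 and Tcf21 cluster do not overlap those of either other cluster in any library. In the Notch3 part the same quotient was 0.615, 0.776 and 0.580.

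**Figure D5:**
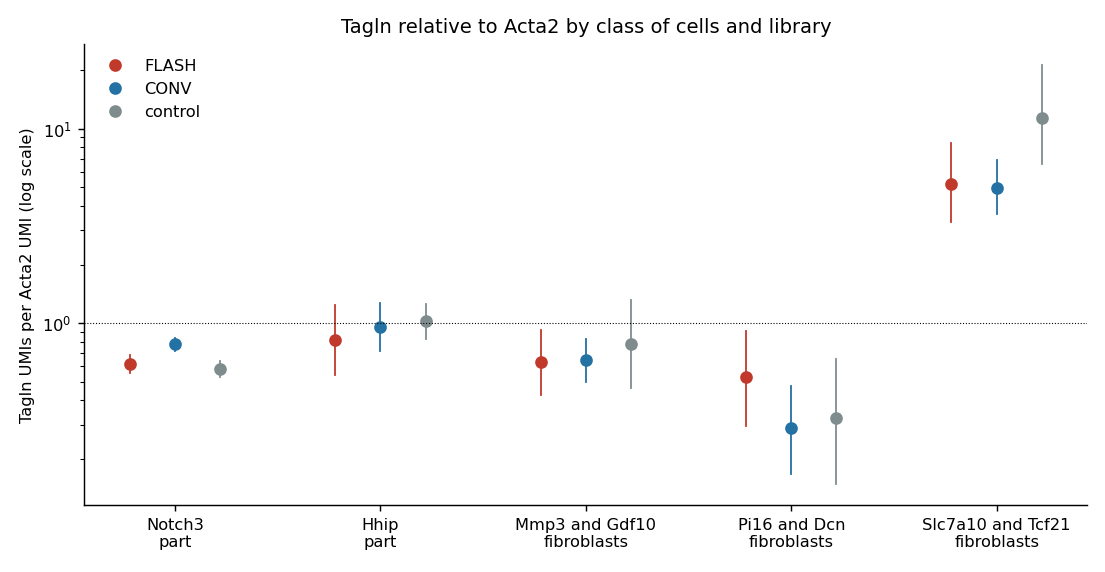
Tagln UMIs per Acta2 UMI (y axis, log scale) in both parts of the smooth muscle class and in 3 fibroblast clusters, with FLASH, CONV and control side by side and exact 95% intervals. The Slc7a10 and Tcf21 fibroblasts lie at 5.17, 4.96 and 11.4, above 1 in every library. The points of the Mmp3 and Gdf10 and the Pi16 and Dcn fibroblasts lie below 1. The control interval of the Mmp3 and Gdf10 fibroblasts (0.46 to 1.31) includes 1.

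Between libraries, Tagln of the Slc7a10 and Tcf21 cluster was 0.56 times control in FLASH (0.44 to 0.72), past the fold, where 14.4% of 4055 genes were lower and 13.1% higher. In CONV Tagln was 0.71 times control (0.58 to 0.87), within the fold, and Tpm2 was past it at 0.57 (0.32 to 1.02) and Acta2 at 1.63 (0.89 to 3.20), both with intervals that include 1, where 13.7% of 5047 genes were lower and 13.4% higher. FLASH over CONV was 0.79 for Tagln (0.63 to 0.99), within the fold, with 9.58% of 5356 genes higher and 10.5% lower. Sln was also past the fold in FLASH against both other libraries, through the single cell described further on. Stromal sub-clusters divided this cluster, and the Tagln ratio varied between them, a difference that was not tested. In the largest, led by Bmper and Colq, Tagln had 403 CPM in FLASH, 445 CPM in CONV and 715 CPM in control. FLASH was 0.56 times control there (0.40 to 0.79) and CONV 0.62 times (0.46 to 0.85). In the one led by Gm26802 and Jun it had 262, 552 and 931 CPM. The ratio to control was 0.28 in FLASH (0.15 to 0.50) and 0.59 in CONV (0.39 to 0.89). In the one led by Adap2os and Lrp4 it had 494, 708 and 503 CPM, with ratios to control of 0.98 in FLASH (0.52 to 1.83) and 1.41 in CONV (0.86 to 2.35). The share of all cells of the cluster with a Tagln UMI, thinned to 1000 UMIs, was 25.4% in FLASH, 33.8% in CONV and 49.3% in control (34.5%, 48.1% and 74.0% as deposited). In the Mmp3 and Gdf10 cluster none of the 4 genes counted was past the fold in any comparison, where 13.7%, 17.2% and 9.17% of all genes were higher and 13.3%, 12.8% and 12.4% lower for FLASH over control, CONV over control and FLASH over CONV. Acta2 there was 273 CPM in FLASH, 384 CPM in CONV and 264 CPM in control, and the control level rests on the cell with 22 of its 37 UMIs. Without the cell with the most Acta2 UMIs of each library, an alternative chosen after the data were seen, Acta2 was past the fold upwards at 2.13 times control in FLASH (1.20 to 4.03) and 3.23 times in CONV (1.90 to 5.90), and FLASH over CONV was past it downwards at 0.66 (0.48 to 0.89). In the Pi16 and Dcn cluster Tpm2 had 162 CPM in FLASH, 225 CPM in CONV and 85.2 CPM in control, a ratio of 1.91 in FLASH (0.92 to 4.34) and 2.64 in CONV (1.34 to 5.80). Myl9 of the same cluster was lower, 162, 124 and 247 CPM, with ratios of 0.66 (0.39 to 1.12) and 0.50 (0.29 to 0.86). In that cluster 18.8% of all genes were higher and 13.4% lower in FLASH than in control, and 19.2% were higher and 12.4% lower in CONV than in control. For FLASH over CONV 0 of 4 were past the fold, with 9.09% of all genes higher and 11.8% lower.

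Over all fibroblasts the sum of the set was 0.84 times control in FLASH (0.74 to 0.95) and 0.96 times in CONV (0.86 to 1.07). Myh11, Cnn1 and Actg2 had at most 3 UMIs each in any library over all fibroblasts, and no fibroblast held more than 5 of the 10 genes. The fibroblast richest in Acta2 held 11 UMIs in FLASH, 16 in CONV and 22 in control. In the Mmp3 and Gdf10 cluster an Acta2 UMI was found in 27 of 138 FLASH, 62 of 171 CONV and 11 of 37 control cells.

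Outside smooth muscle and fibroblasts the levels were low over all cells pooled, and a few clusters stood higher. The sum of the set there was 1.94 times control in FLASH (1.61 to 2.34) and 2.14 times in CONV (1.80 to 2.55). With the lymphoid level subtracted the ratios were 0.836 and 2.43. The make-up of these cells differs between libraries, and its part in the ratios was not tested. Acta2 had 18.6 CPM in FLASH, 19.1 CPM in CONV and 11.2 CPM in control over all other cells, against 13.6, 17.9 and 7.51 CPM in lymphoid cells alone. In the larger blood endothelial cluster, led by Cytl1 and Plvap, Acta2 had 154 CPM in FLASH, 127 CPM in CONV and 86.0 CPM in control, from 22, 17 and 17 UMIs. Tagln in blood endothelium as a whole had 21 UMIs in 100 FLASH cells (123 CPM), 44 in 73 CONV cells (277 CPM) and 5 in 90 control cells (19.7 CPM). A single CONV cell held 33 of the 44, and the richest FLASH cell 6 of 21. Tpm2 in the epithelial cluster led by Rtkn2 had 9 UMIs in FLASH (132 CPM), 10 in CONV (138 CPM) and 3 in 11 control cells. Acta2 there had 103 CPM in FLASH, with all 7 UMIs in 1 cell. Myl9 in the epithelial cluster of Tmem212 and Foxj1 had 7 UMIs in FLASH, 32 in CONV (59.6 CPM) and 1 in control (7.46 CPM).

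Sln behaved unlike the rest of the set. It had 36 UMIs in FLASH, 8 in CONV and 12 in control, none of them in smooth muscle. In FLASH, 29 of the 36 lay in 1 cell of 1784 UMIs that had been clustered with the Slc7a10 and Tcf21 fibroblasts. The same cell held 73 UMIs of 12 heart muscle genes, among them 24 of Myl4, 16 of Myl7, 9 of Tnnt2, 9 of Mb and 7 of Tnni3, which encode myosin light chains, troponins and myoglobin of the heart. It held 0 UMIs of 5 skeletal muscle genes, 2 of Actc1 and UMIs of 4 of 10 alveolar fibroblast markers. No other cell of any library had more than 1 Sln UMI. The Sln ratio of FLASH over control therefore rests on that cell and is not read as a change.

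Further genes of contraction were taken from a list of 18, chosen with earlier results of these data known. All 18 could be counted in the Notch3 part, and 4 were higher and 2 lower in FLASH than in control, 3 higher and 4 lower in CONV than in control, and 4 higher and 0 lower in FLASH than in CONV. Over all genes in the same 3 comparisons 12.4%, 14.3% and 11.3% were higher and 17.6%, 15.9% and 14.0% lower. In the whole class the counts were 1 higher and 3 lower in FLASH and 2 higher and 3 lower in CONV, each against control, where 10.6% and 12.8% of all genes were higher and 18.0% and 15.8% lower. Lmod1, leiomodin 1, which nucleates actin filaments in smooth muscle, had 759 CPM in FLASH, 803 CPM in CONV and 492 CPM in control of the class, 1.54 (1.00 to 2.36) and 1.63 (1.13 to 2.37) times control. Pdlim3, which binds alpha-actinin, had 10, 19 and 28 UMIs and was lower in both, at 0.60 (0.26 to 1.27) and 0.65 (0.34 to 1.21). Of 16 genes of signalling and ion handling, 2 of 5 countable genes in FLASH and 4 of 5 in CONV were lower than in control, beside the same 18.0% and 15.8% of all genes. Counts were low, with 74 UMIs of all 16 genes in FLASH, 101 in CONV and 173 in control. The list shares genes with the 13 pericyte markers, among them Gucy1b3. Those markers summed to 2343 CPM in FLASH, 1471 CPM in CONV and 2663 CPM in control of the class. Their part in these counts was not tested. Atp2a2, the calcium pump of the sarcoplasmic reticulum, had 7, 14 and 30 UMIs, at 0.39 (0.15 to 0.91) and 0.45 (0.22 to 0.87) times control. Kcnmb1, the beta subunit of the calcium-activated potassium channel, had 5, 12 and 20 UMIs, at 0.42 (0.12 to 1.15) and 0.58 (0.26 to 1.24).

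Of the 5 most abundant genes of the 18 in the class, Tpm1 alone was past the fold against control, and in CONV only. Myl6, the essential light chain, had 8176 CPM in FLASH, 8208 CPM in CONV and 7304 CPM in control, and Csrp1, a LIM protein of the actin skeleton, 2107, 2274 and 1758 CPM. Tpm1, alpha-tropomyosin, had 1669, 1916 and 1125 CPM, with a ratio to control of 1.48 in FLASH (1.12 to 1.96) and 1.70 in CONV (1.34 to 2.17). Ppp1r14a, the inhibitor of myosin phosphatase called CPI-17, had 1366, 1607 and 1075 CPM, just within the fold in CONV at 1.49 (1.17 to 1.92), and Flna, filamin A, 1214, 1239 and 1527 CPM. Srf, Myocd, Mkl1 and Mkl2, the transcription factors of the set, had 8, 7 and 8 UMIs together in the class, too few to compare.

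Genes outside the set whose log2 level followed a member most closely were sought across 60 sums of a cluster in a library (22 clusters with at least 20 cells). Acta2 was nearest to Mustn1 (Pearson r 0.83) and Fam13c (0.81), Tagln to Mfge8 (0.83) and Eln (0.82), and Myh11 to Fbxl22 (0.82) and Synpo2 (0.82). Cnn1 was nearest to Synpo2 (0.81) and Adcy5 (0.80), Actg2 to Synpo2 (0.76) and Lmod1 (0.73), and Actc1 to Lmod1 (0.79) and Tcap (0.79). Des was nearest to Gria1 (0.82) and Gucy1b3 (0.79), Myl9 to Mir143hg (0.82) and Jph2 (0.81), and Tpm2 to Arhgef25 (0.83). Sln had no close match, with 0.51 for Thada and 0.51 for Clcn6. Within the set Acta2 and Myl9 reached 0.84 and Myh11 and Cnn1 0.84, whereas Acta2 and Actg2 reached 0.54. The points share libraries and depth, so these values describe where the genes are found.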

How the data were processed

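Lung cells were captured with the 10x Genomics single-cell 3′ v2 kit, per the labels' protocols. The authors deposited filtered matrices of UMI counts per gene and cell, made with Cell Ranger 2.0 and mm10, per the submitters' processing notes. No deposited column was left unmapped (0).

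Cells with under 200 genes (50 barcodes), over 10% mitochondrial UMIs (154) or the highest Scrublet scores, 0.8% per 1000 barcodes (117), were removed, since Scrublet's own threshold marked 44. Total UMIs were 5498902 in FLASH, 7463259 in CONV and 7114360 in control. Cells were clustered (Leiden, scanpy 1.11.5, Python 3.11.15; 2000 variable genes without the 10 members, 30 components, 15 neighbours, resolution 1), and stromal cells again (1000 genes, 20 components). Clusters were named from marker lists. UMIs were summed per class and library and given as CPM with exact Poisson intervals, ratios with conditional binomial intervals, and differences of shares with Newcombe intervals. Intervals cover counting error only. A gene was counted from 20 UMIs over both libraries and called at 1.5-fold; a count of 0 was bounded with 3 counts. Ratio code was checked on simulated counts. With 1 library a group there was no test. All members are named; genes outside the set follow a rule of size, abundance or likeness, and 1 of them is not reported here. The members, marker lists and gene lists were chosen with earlier results of these data known. Alternatives were other filters, resolutions, scalings, weights, a background subtraction, thinning to 1000 UMIs, and leaving out the cells richest in the members.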

Additional observations from a re-analysis of the deposited data

Results flagged for a closer look

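For the contractile genes Actc1, Des and Tpm2, summed ratios of FLASH over control lay on opposite sides of 1 in the 2 portions of the smooth muscle class, but in the Hhip part they rest on 2 control cells and no opposite direction is read from them. Actc1 was 2.43 times control in the Notch3 part (1.93 to 3.06) and at most 0.228 times control in the Hhip part, where FLASH had 0 UMIs and control 25. Des was 1.52 times control in the Notch3 part (1.18 to 1.95) and 0.200 times control in the Hhip part (0.0833 to 0.414). Tpm2 was 1.64 times control in the Notch3 part (1.37 to 1.96) and 0.137 times control in the Hhip part (0.0611 to 0.268). The difference between the portions was not tested. In the Hhip part 2 of 8 control cells held all 25 Actc1, 74 of 76 Des and 124 of 125 Tpm2 UMIs. Outside these 2 cells, which were picked by their content of the set, 9 FLASH cells held 8 Des and 9 Tpm2 UMIs. The other 6 control cells held 2 Des and 1 Tpm2 UMIs.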

How the results depend on the processing

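No paired analysis was possible because each group is 1 library and the labels give no replicate numbers. Of 243 alternative values for sums, counts and shares, 195 stayed within their interval or within 1.5 times the count, 45 moved and 3 reversed. Of 746 for single genes, 84 moved and 5 reversed. Some values could not move, so these counts do not measure stability. The resolution of sub-clustering cannot change the whole class, the fibroblasts, the other cells or the shares of the class. Leaving out Cox4i2 and Higd1b cells left the sums of fibroblasts and other cells as they were. Thinning to 1000 UMIs, leaving out cells with 4 Cox4i2 and Higd1b UMIs, leaving out the cell with the most UMIs, and the settings for the Hhip part and the fibroblast clusters were chosen after seeing the data. The summed level in the whole class, FLASH over control, was 1.27 with a mitochondrial limit of 5% and 1.25 thinned; CONV over control was 1.38 with that limit, 1.37 as a mean over cells and 1.39 thinned; FLASH over CONV was 0.926, 0.854 and 0.904 under the same settings. In the Notch3 part FLASH over control was 1.47 thinned. CONV over control was 1.03 at resolution 2, 1.25 as a mean over cells, 1.03 without Cox4i2 and Higd1b cells and 1.27 thinned. FLASH over CONV was 1.16 with the 5% limit, 1.30 at resolution 2, 1.08 as a mean over cells and 1.30 without Cox4i2 and Higd1b cells. In other cells FLASH over control, 1.94 in the main setting, was 1.43 thinned and reversed to 0.836 with the lymphoid level subtracted. CONV over control, 2.14 in the main setting, was 2.92 with doublets kept and 1.74 thinned. FLASH over CONV, 0.906 in the main setting, was 0.694 with doublets kept and 0.344 after subtraction. The counts of genes past the fold under these alternatives have no share of all genes beside them. In the class, CONV over control, they numbered 5 with the 5% limit, 4 as a mean over cells, 2 without the top cell and 5 thinned. FLASH over CONV gave 2 as a mean over cells and 2 thinned. In the Notch3 part FLASH over control gave 1 with the 5% limit, 1 at a fold of 2 and 5 thinned. CONV over control gave 1 with the 5% limit, at resolution 2, at a fold of 2 and without Cox4i2 and Higd1b cells, 4 without the top cell and 5 thinned. FLASH over CONV gave 1 at resolution 2 and 1 without Cox4i2 and Higd1b cells, which was Acta2 at 1.51. In the Hhip part the sum, FLASH over control, was 0.103 in all cells of its sub-cluster, 0.465 without the top cell and reversed to 8.69 without the cells rich in the set; CONV over control was 0.300, 1.81 and 7.57 under the same settings; FLASH over CONV was 0.343 in the sub-cluster and reversed to 1.15 without the rich cells. Without the rich cells Acta2 reversed to 9.27 (FLASH over control) and 2.16 (FLASH over CONV) and Tagln to 45.5 (FLASH over control); in the sub-cluster Actc1 and Actg2 reversed to 0.665 and 0.351 (CONV over control). Here 2 control and 2 CONV cells hold most UMIs. Leaving out the rich cells removes cells by the quantity compared and removes none from FLASH, so these reversals are not read as a direction. For the other results the cause was not tested. With 108 smooth muscle cells, low genes cannot be compared at this depth.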
